A study of Homo sapiens with 15 samples.

Results

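The genes described here are 9 invasion proteases and their inhibitors, measured in 5 groups of oral cells: the matrix metalloproteinases MMP1, MMP9, MMP10, MMP13 and MMP14, the urokinase PLAU with its receptor PLAUR, and the tissue inhibitors TIMP1 and TIMP2. They were taken by exact gene symbol, and all 9 were found among the 12995 genes of both deposited tables. The study sequenced RNA from 15 libraries, 3 in each group, to compare oral cell lines with each other and to follow the loss of YBX1, an RNA- and DNA-binding protein. OKF6 stands for normal oral epithelium, and SCC15 and SCC25 derive from oral squamous carcinoma. SCC15 and SCC25 cells carried Cas9 and a doxycycline-inducible guide against YBX1, delivered by lentivirus, and were sorted pools rather than single clones. Cells given doxycycline at 1 µg/ml form the groups SCC15 -YBX1 and SCC25 -YBX1, and cells without it, bearing the same constructs, the groups SCC15 +YBX1 and SCC25 +YBX1. No group was given doxycycline without a guide against YBX1, so YBX1 loss and doxycycline cannot be told apart. All 5 groups are labelled with a time of 3 days. The +YBX1 libraries have a double role, since they are the controls of the knockdown and also stand for SCC15 and SCC25 when lines are compared. Keratinocyte serum-free medium was used for OKF6 and SCC25, but DMEM plus serum for SCC15. Line and medium therefore cannot be told apart wherever SCC15 is compared. OKF6 is not labelled with the constructs, so line and constructs cannot be told apart wherever OKF6 is compared.

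Matrix metalloproteinases are zinc enzymes, made as inactive precursors, that cut collagens and other proteins of the extracellular matrix. Urokinase, held at the cell surface by its receptor, turns plasminogen into plasmin, a serine protease that degrades fibrin and activates some of the metalloproteinases. TIMP1 and TIMP2 bind active metalloproteinases and block them, and TIMP2 also takes part, with MMP14, in the activation of MMP2. In oral carcinoma these enzymes are studied for their part in the passage of tumour cells through the basement membrane.

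Reads counted on genes lay between 4075290 and 6118501 per library, and levels are given as log2 CPM, the log2 of CPM (read counts scaled to library size) with 0.5 read added. A single read was worth at most 0.226 CPM, and 3 reads per library were taken as the floor of detection, at most 0.677 CPM, or 9 reads over the 3 libraries of a group. YBX1, the targeted gene, stood at 6.31 to 6.74 log2 CPM in SCC25 +YBX1 and at 3.65 to 5.26 in SCC25 -YBX1, and at 5.11 to 6.00 in SCC15 +YBX1 and 3.13 to 3.71 in SCC15 -YBX1. It was lower after doxycycline in all 3 pairs of each line, without overlap, yet the fitted changes of -2.01 and -2.15 did not pass adjustment over all genes (limma, adjusted p = 0.290 and 0.326). Replicate 2 of SCC25 -YBX1 stood apart, with a mean of 6.84 log2 CPM over 12 interferon response genes against 3.58 to 5.11 in the other SCC25 libraries. SCC15 nearly lacked the keratinocyte markers that define an oral epithelial line. Their summed level over 10 genes was 6.74 to 45.1 CPM in SCC15 +YBX1, 12480 to 23150 CPM in SCC25 +YBX1 and 27130 to 36520 CPM in OKF6, and TP63 and DSG3 had 1 and 2 reads in all SCC15 +YBX1 libraries together. Of 10 fibroblast markers 3 were in the tables (COL1A1, LUM and VIM), and of 8 leukocyte and endothelial markers 2 (CD68 and CD14). The former summed to 326 to 342 CPM in SCC15 +YBX1, 700.4 to 1209 in SCC25 +YBX1 and 115 to 142 in OKF6, and the latter to 0.506 to 2.00, 38.5 to 44.5 and 12.2 to 29.3.

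The genes lie on 7 chromosomes of hg38. MMP10 (chr11:102770502-102780628), MMP1 (chr11:102789401-102798160) and MMP13 (chr11:102942995-102955732) sit on the minus strand within 185 kb of each other, in a cluster of 9 metalloproteinase genes of which MMP3 is the only other one in the tables. MMP9 lies at chr20:46008908-46016561 (plus), MMP14 at chr14:22836560-22849041 (plus), PLAU at chr10:73909177-73917496 (plus) and PLAUR at chr19:43646095-43670547 (minus). TIMP1 lies at chrX:47582408-47586789 (plus) and TIMP2 at chr17:78852977-78925387 (minus). Exons of MMP1 share 223 bases with the antisense gene WTAPP1, those of MMP9 430 with SLC12A5-AS1, those of PLAU 915 with C10orf55 and those of TIMP2 367 with an antisense RNA known only by its identifier. Whether strand was used in counting is not given in the sources used here, so reads in the shared bases may not be separable. Within the last 500 bases of their transcripts, MMP1, PLAU and TIMP2 matched no other gene, while part of MMP9 matched SLC12A5-AS1. TIMP2 also shares 224 exon bases with CEP295NL on the same strand, which strand cannot separate. C10orf55, where listed, stayed between -3.86 and 2.41 log2 CPM.

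RefSeq promoter sequence on GRCh38.p14 was at hand for 5 of the 9 genes (MMP10, MMP14, PLAU with 2 start sites, PLAUR and TIMP1). The 250 bases before the start are shown for the 3 proteases and the receptor among them, all of them lower in SCC15 than in both other lines. Capitals mark the TATA box (TATAAA), the CCAAT box in either orientation, which is the motif class after which the Y-box protein YBX1 was named, and the AP-1 site (TGAGTCA or TGACTCA). All were searched on both strands.
MMP10, chr11:102780629-102780878, minus strand: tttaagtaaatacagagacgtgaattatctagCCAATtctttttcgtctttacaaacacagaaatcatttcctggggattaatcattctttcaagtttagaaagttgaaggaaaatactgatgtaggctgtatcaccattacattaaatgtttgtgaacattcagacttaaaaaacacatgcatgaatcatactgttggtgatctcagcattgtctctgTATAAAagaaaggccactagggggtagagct
MMP14, chr14:22836335-22836584, plus strand: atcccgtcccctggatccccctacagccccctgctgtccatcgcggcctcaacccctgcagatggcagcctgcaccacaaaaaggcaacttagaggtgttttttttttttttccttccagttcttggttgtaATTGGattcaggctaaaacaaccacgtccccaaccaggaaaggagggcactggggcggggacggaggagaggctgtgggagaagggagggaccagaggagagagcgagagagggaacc
PLAU, upstream start, chr10:73910360-73910609, plus strand: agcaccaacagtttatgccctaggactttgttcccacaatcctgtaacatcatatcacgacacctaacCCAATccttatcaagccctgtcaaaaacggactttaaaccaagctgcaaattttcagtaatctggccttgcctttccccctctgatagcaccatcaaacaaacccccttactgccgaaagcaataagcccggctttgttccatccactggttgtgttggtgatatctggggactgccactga
PLAU, downstream start, chr10:73910882-73911131, plus strand: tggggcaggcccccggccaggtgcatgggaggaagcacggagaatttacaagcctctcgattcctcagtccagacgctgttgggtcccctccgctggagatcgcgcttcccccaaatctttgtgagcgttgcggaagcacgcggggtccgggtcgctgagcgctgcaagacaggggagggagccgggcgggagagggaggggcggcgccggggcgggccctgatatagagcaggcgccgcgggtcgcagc
PLAUR, chr19:43670170-43670419, minus strand: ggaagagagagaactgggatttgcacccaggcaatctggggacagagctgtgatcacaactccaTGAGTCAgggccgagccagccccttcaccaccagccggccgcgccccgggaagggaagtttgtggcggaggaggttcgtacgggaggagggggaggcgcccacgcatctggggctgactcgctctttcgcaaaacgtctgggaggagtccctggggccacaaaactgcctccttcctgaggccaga
MMP10 held the TATA box at -31 to -26 from its start and a CCAAT box at -218 to -214. MMP14 held a CCAAT box on the other strand (ATTGG) at -118 to -114, and the upstream PLAU window held one at -182 to -178. PLAUR held the AP-1 letters at -186 to -180. The downstream PLAU window and the TIMP1 window held none of the 3 motifs. Of 35116 RefSeq windows of the same length, 10.7% held the TATA box, 32.0% a CCAAT box and 4.20% the AP-1 letters. Among the 14799 windows of genes in the tables, the shares were 6.1%, 32.8% and 2.97%. These matches describe letters and not sites in use.

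**Figure D1:**
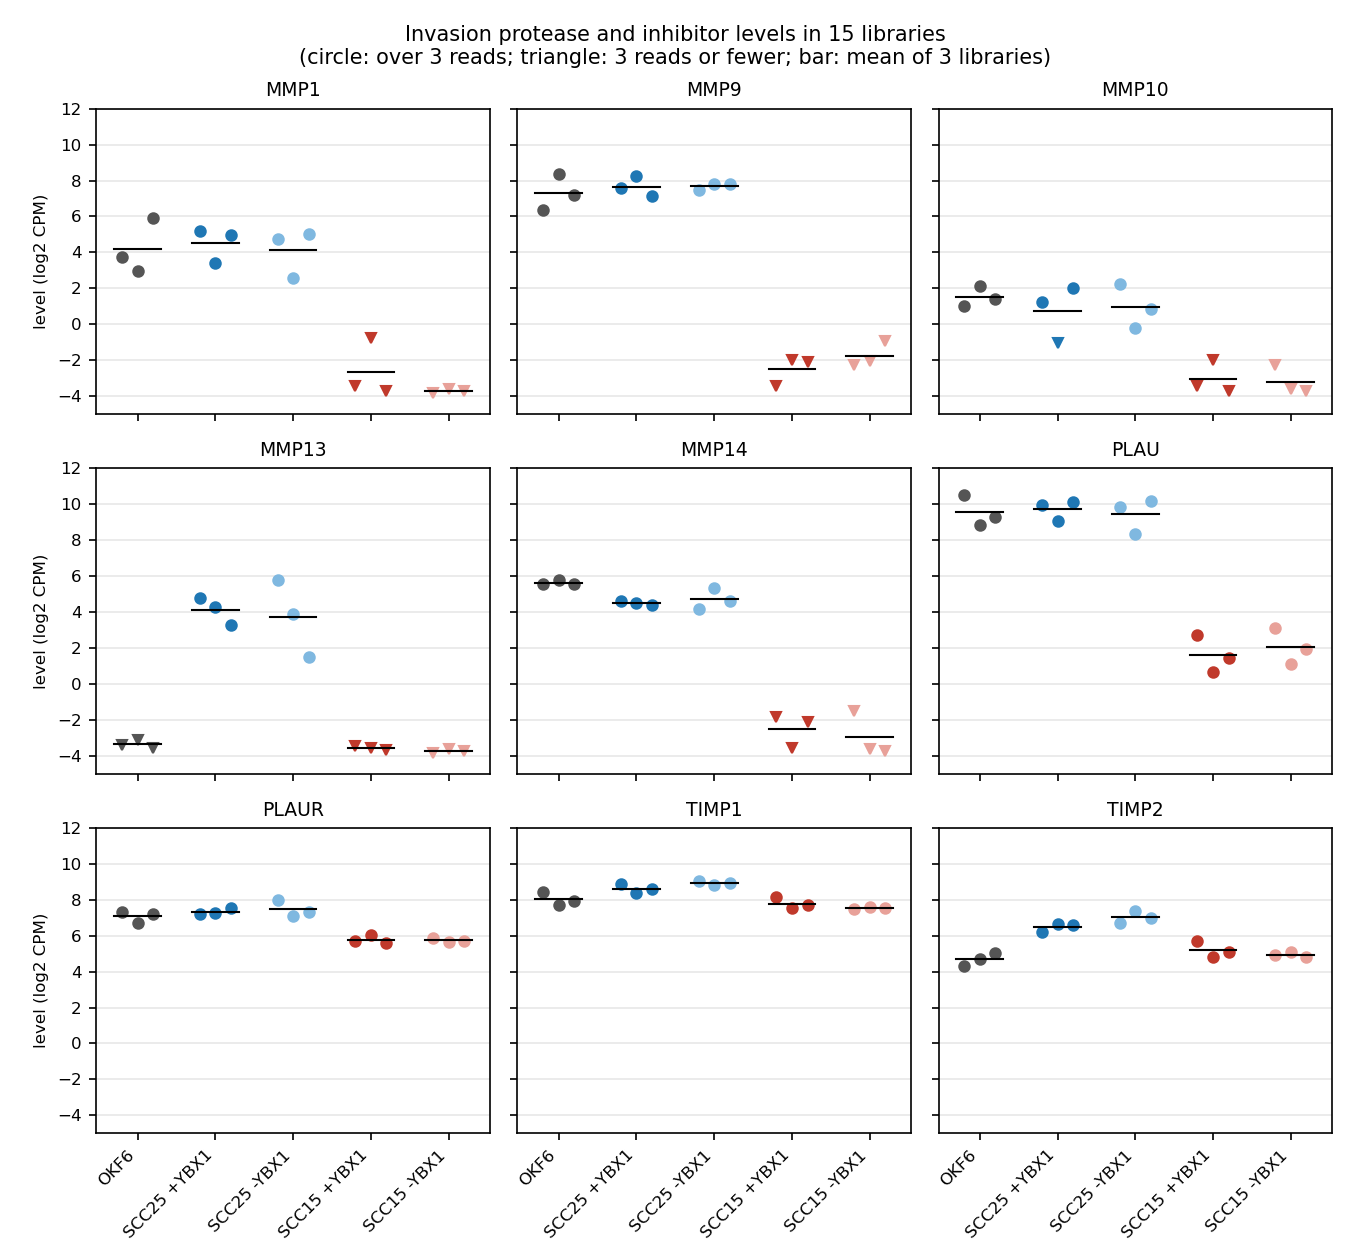
Levels of the 9 genes (log2 CPM, vertical axis) in each of 15 libraries, by group, with the mean of 3 libraries as a bar and triangles for libraries with 3 reads or fewer. The 5 metalloproteinases and PLAU sit far lower in both SCC15 groups than in SCC25, MMP13 is at 0 reads in OKF6 and SCC15, and the -YBX1 libraries lie near the +YBX1 libraries of their line.

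All 9 genes were lower in SCC15 than in SCC25, by between -0.81 and -10.18 on the log2 scale. With limma and an adjusted p under 0.05 over all genes, 9 of 9 were lower and 0 higher, while 23.6% of all 12995 genes were lower and 20% higher. Their median difference was -7.03 against -0.01 for all genes, or -5.28 with genes of few reads set at their read ratio or bound. MMP1, MMP9, MMP10, MMP13 and MMP14 had at most 3 reads over the SCC15 +YBX1 libraries together. They are in the tables through other groups and could hardly come out higher in SCC15 than in SCC25 or OKF6. The 9 genes were also chosen with earlier results of these data known, so these counts describe and do not test. Against OKF6, SCC15 was lower in 6 of 9 genes (MMP1, MMP9, MMP10, MMP14, PLAU and PLAUR) and higher in 0, where 23.4% of all genes were lower and 26.9% higher. SCC25 was higher than OKF6 in 2 of 9 (MMP13 and TIMP2) and lower in 0, where 18.9% of all genes were higher and 11.3% lower. MMP13 had 0 reads in OKF6 and could not come out lower in SCC25. For SCC25 against OKF6 the 9 genes had a median of 0.34 and all genes 0.13. OKF6, SCC15 and SCC25 each enter 2 of these comparisons, so the comparisons are not independent. Nothing in the labels says that replicates came from separate cultures, so p-values measure the spread between these libraries.

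**Figure D2:**
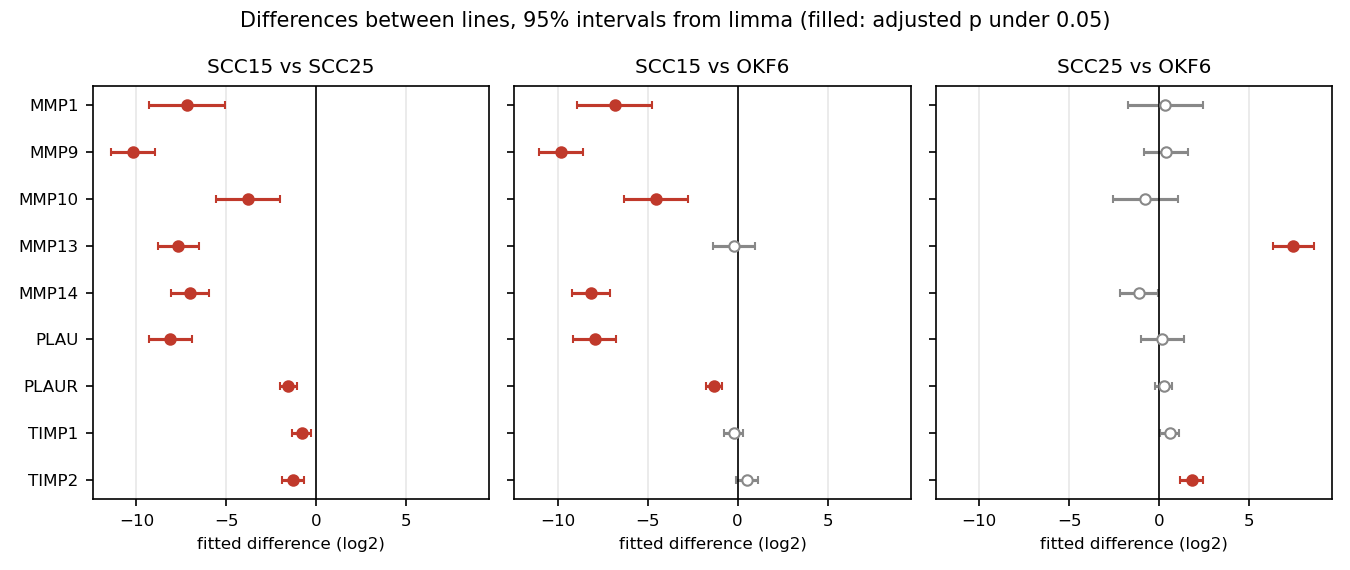
Fitted differences between lines (log2, horizontal axis) with 95% intervals from limma, filled where the adjusted p was under 0.05. The 9 differences between SCC15 and SCC25 all lie below 0, 6 of 9 do so against OKF6 past the threshold, and SCC25 differs from OKF6 in MMP13 and TIMP2. Values of genes at or near 0 reads depend on the 0.5 read added.

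MMP1 and MMP13 are collagenases, which cut fibrillar collagen. MMP1 had 69, 34 and 357 reads in OKF6 replicates 1 to 3, 197, 54 and 153 in SCC25 +YBX1, and 0, 3 and 0 in SCC15 +YBX1. Its levels were 3.73, 2.96 and 5.91 log2 CPM in OKF6 and 5.21, 3.42 and 5.00 in SCC25 +YBX1, overlapping ranges, with both far above SCC15. In summed reads per effective library size, MMP1 was 159-fold lower in SCC15 than in SCC25 (404 against 3 reads, 95% interval from counting error alone 53.9 to 773) and 176-fold lower than in OKF6 (59.9 to 858), and the fitted differences were -7.18 (SE 0.95, limma adjusted p = 0.000118) and -6.84 (SE 0.95, adjusted p = 0.000129). All 3 SCC15 reads came from replicate 2, without which MMP1 was at least 53.1-fold below SCC25 and at least 59.0-fold below OKF6. The ratio to OKF6 was 63.7 without OKF6 replicate 3, and without SCC15 replicate 3 the ratios were 101 to SCC25 and 112 to OKF6. SCC25 and OKF6 differed by 0.34 (95% interval -1.75 to 2.43, adjusted p = 0.818). In a bulk library, fewer cells with a transcript and less transcript per cell cannot be told apart.

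MMP13 was detected in SCC25 alone among the lines. It had 144, 97 and 46 reads in SCC25 +YBX1, or 4.76, 4.26 and 3.27 log2 CPM, and 279, 75 and 14 in SCC25 -YBX1. All 3 OKF6 libraries and all 6 SCC15 libraries had 0 reads, which allows up to 3 reads in each. Taking the group of 0 at that floor, MMP13 was at least 32.7-fold higher in SCC25 than in OKF6 and at least 37.6-fold higher than in SCC15 (fitted 7.47, SE 0.52, limma adjusted p = 7.09e-06, and -7.67 for SCC15 against SCC25, adjusted p = 9.85e-07). No fold is given for SCC15 against OKF6, as both were at 0.

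MMP9, a gelatinase that cuts denatured collagen and basement membrane collagen, had the lowest fitted difference of the 9 genes in SCC15, a value that depends on the 0.5 read added. Its levels were 6.35, 8.38 and 7.18 log2 CPM in OKF6 and 7.59, 8.27 and 7.14 in SCC25 +YBX1, with overlapping ranges. SCC15 +YBX1 had 0, 1 and 1 reads, against 1024, 1567 and 677 in SCC25 +YBX1 and 426, 1474 and 860 in OKF6. The ratio of summed reads was 1925 for SCC25 over SCC15 (533 to 15900) and 1586 for OKF6 over SCC15 (439 to 13110, and 1033 without OKF6 replicate 2), with fitted differences of -10.18 (SE 0.56, limma adjusted p = 3.08e-07) and -9.82 (SE 0.56, adjusted p = 3.07e-07). SCC25 minus OKF6 was 0.36 (95% interval -0.87 to 1.59, adjusted p = 0.655).

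MMP10, a stromelysin with a broad range of matrix substrates, was sparse in every group. OKF6 had 10, 19 and 15 reads, SCC25 +YBX1 12, 2 and 19, and SCC15 +YBX1 0, 1 and 0. SCC25 +YBX1 replicate 2, with 2 reads, lay under the floor of 3 reads, as did all SCC15 +YBX1 libraries. The highest SCC15 library stood at -1.98 log2 CPM (1 read) and the lowest SCC25 library at -1.02 (2 reads). The ranges did not overlap, but these 2 libraries cannot be told apart at this floor. The ratio was 38.9 for SCC25 over SCC15 (6.51 to 1582) and 50.6 for OKF6 over SCC15 (8.62 to 2043). These ratios rest on 1 SCC15 read in replicate 2, without which they were at least 4.33 and at least 5.64. They were 24.8 and 32.3 without SCC15 replicate 3, and that to SCC25 was 24.1 without SCC25 replicate 3. Both differences passed the threshold (limma, -3.79, SE 0.81, adjusted p = 0.00320, and -4.56, SE 0.81, adjusted p = 0.000769), and that between SCC25 and OKF6 did not (-0.77, 95% interval -2.56 to 1.02, adjusted p = 0.507).

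MMP14, the membrane-anchored metalloproteinase that cuts pericellular collagen and activates MMP2, was even across replicates of OKF6 and SCC25. It stood at 5.55, 5.80 and 5.56 log2 CPM in OKF6 and at 4.63, 4.52 and 4.39 in SCC25 +YBX1, and had 1, 0 and 1 reads in SCC15 +YBX1. The 3 lines did not overlap, with OKF6 highest and SCC15 lowest. The ratio was 204 for SCC25 over SCC15 (56.2 to 1695) and 443 for OKF6 over SCC15 (122 to 3666), with fitted differences of -7.03 (SE 0.48, limma adjusted p = 1.04e-06) and -8.16 (SE 0.48, adjusted p = 3.64e-07). SCC25 lay 2.19-fold below OKF6 (log2 -1.13, SE 0.48), which did not pass adjustment (limma adjusted p = 0.0998 in the fit of all 9 libraries). When only the 6 libraries of these 2 lines were fitted the adjusted p was 0.00900, with a pseudocount of 1 CPM 0.00787, and with voom weights 0.00462. Over all alternatives the MMP14 difference kept its sign, and leaving out 1 library at a time gave -1.19 to -1.05.

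PLAU, the urokinase, had 2049 to 7794 reads per library in OKF6 and SCC25 +YBX1 and 9 to 36 in SCC15 +YBX1. Its levels were 10.54, 8.85 and 9.28 log2 CPM in OKF6, 9.97, 9.09 and 10.13 in SCC25 +YBX1, and 2.73, 0.68 and 1.43 in SCC15 +YBX1. OKF6 and SCC25 overlapped and SCC15 lay apart. SCC15 was 277-fold lower than SCC25 (95% interval 121 to 637, log2 -8.11, SE 0.54, limma adjusted p = 9.38e-07) and 246-fold lower than OKF6 (107 to 566, log2 -7.95, adjusted p = 8.13e-07). The difference of SCC25 from OKF6 was 0.17 (95% interval -1.03 to 1.37, adjusted p = 0.847) and turned to -0.041 with quantile normalization.

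PLAUR, the receptor that holds urokinase at the cell surface, was lower in SCC15 by far less than its ligand. The levels were 7.31, 6.72 and 7.24 log2 CPM in OKF6, 7.19, 7.25 and 7.56 in SCC25 +YBX1, and 5.72, 6.01 and 5.58 in SCC15 +YBX1. SCC15 did not overlap with either line. It was 2.95-fold below SCC25 (95% interval 2.13 to 4.09, log2 -1.56, SE 0.21, limma adjusted p = 0.000156) and 2.49-fold below OKF6 (1.80 to 3.45, log2 -1.32, SE 0.21, adjusted p = 0.000404). SCC25 and OKF6 differed by 0.24 (95% interval -0.23 to 0.72, adjusted p = 0.419).

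TIMP1, a soluble inhibitor of most metalloproteinases, was high in every group, and of the 9 genes it differed least between SCC15 and SCC25. It stood at 8.42, 7.70 and 7.96 log2 CPM in OKF6, 8.85, 8.35 and 8.60 in SCC25 +YBX1 and 8.15, 7.54 and 7.69 in SCC15 +YBX1. SCC15 did not overlap with SCC25, while OKF6 overlapped with both. SCC15 was 1.75-fold below SCC25 (95% interval 1.21 to 2.54, log2 -0.81, SE 0.24, limma adjusted p = 0.0197). That call was lost with library medians set equal (-0.66, adjusted p = 0.0543), with quantile normalization (-0.50, adjusted p = 0.0824) and without SCC15 +YBX1 replicate 2 or 3 or SCC25 +YBX1 replicate 1 or 3 (-0.81 to -0.69, adjusted p from 0.0564 to 0.0838). TIMP1 in SCC25 was 0.58 above OKF6 (SE 0.24, adjusted p = 0.0957), and 0.78 (adjusted p = 0.0162) without OKF6 replicate 1. SCC15 and OKF6 differed by -0.23 (95% interval -0.77 to 0.30, adjusted p = 0.450).

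TIMP2, the inhibitor that also binds MMP14 at the cell surface, was highest in SCC25. Its levels were 4.30, 4.72 and 5.04 log2 CPM in OKF6, 6.23, 6.66 and 6.59 in SCC25 +YBX1, and 5.72, 4.81 and 5.09 in SCC15 +YBX1. SCC25 overlapped with neither of the other lines, whose ranges overlapped with each other. It was 3.51-fold above OKF6 (95% interval 2.28 to 5.42, log2 1.81, SE 0.28, limma adjusted p = 0.000968), and SCC15 was 2.45-fold below SCC25 (1.59 to 3.78, log2 -1.29, SE 0.28, adjusted p = 0.00370). The difference of SCC15 from OKF6 was 0.52 (95% interval -0.10 to 1.15, adjusted p = 0.149). TIMP2 and MMP13 were thus the genes past the threshold in SCC25 against OKF6, an inhibitor and a collagenase.

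Other gene lists were also lower in SCC15. All 10 keratinocyte markers were lower in SCC15 than in SCC25 and than in OKF6, with medians of -9.71 and -10.15 on the log2 scale. Of 12 interferon response genes 11 were lower than in SCC25 and 11 than in OKF6 (medians -4.52 and -4.53), and of 2 leukocyte markers measured both were lower than in SCC25 and than in OKF6 (medians -4.73 and -4.15). The part of these lists in the protease values was not tested. Over the 15 libraries, the 3 genes most like MMP14 by Pearson r of log2 CPM were C19orf33, the keratin KRT19 and the cystatin CSTA, each at 0.995. Those most like PLAU were PXDN (0.994), ITPR3 (0.994) and STAT6 (0.993), and those most like MMP9 were S100A3, SPATS2L and FUT2 (each 0.992). For MMP13 they were C11orf86 (0.991), SLC52A1 (0.987) and MAOB (0.984), and for TIMP2 CPZ (0.954), BGN (0.953) and FAM20C (0.95). MMP1 was most like ZNF600 (0.976), MMP10 like INPP4B (0.971), PLAUR like LINC01605 (0.979) and TIMP1 like INIP (0.947). The points share their line, and the 6 SCC15 libraries lie apart from the other 9 for most of these genes, so each r mainly orders lines and describes no independent replicates.

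None of the 9 genes in SCC25 and none of the 4 measurable ones in SCC15 passed the threshold after loss of YBX1. Doxycycline was given in every -YBX1 library and in no +YBX1 library. In SCC25, 0 of the 9 genes and 0 of 12995 genes (0%) had an adjusted p under 0.05 (limma), and 1 of the 9 had an unadjusted p under 0.05, as did 3.09% of all genes. In SCC15, 5 of the 9 genes had too few reads in both arms to be tested. Of the other 4, 0 passed, as did 0 of 12995 genes (0%), and 0 had an unadjusted p under 0.05, as did 2.32% of all genes. The -YBX1 and +YBX1 libraries did not overlap for 1 of 9 genes in SCC25, where 7.31% of all genes did not, and for 0 of the 4 measurable genes in SCC15, where 7.04% did not. The median change of the 9 genes in SCC25 was 0.14, against -0.02 for all genes. In SCC15 the 4 genes with a measurable change had a median of -0.13, against -0.01 for all genes.

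**Figure D3:**
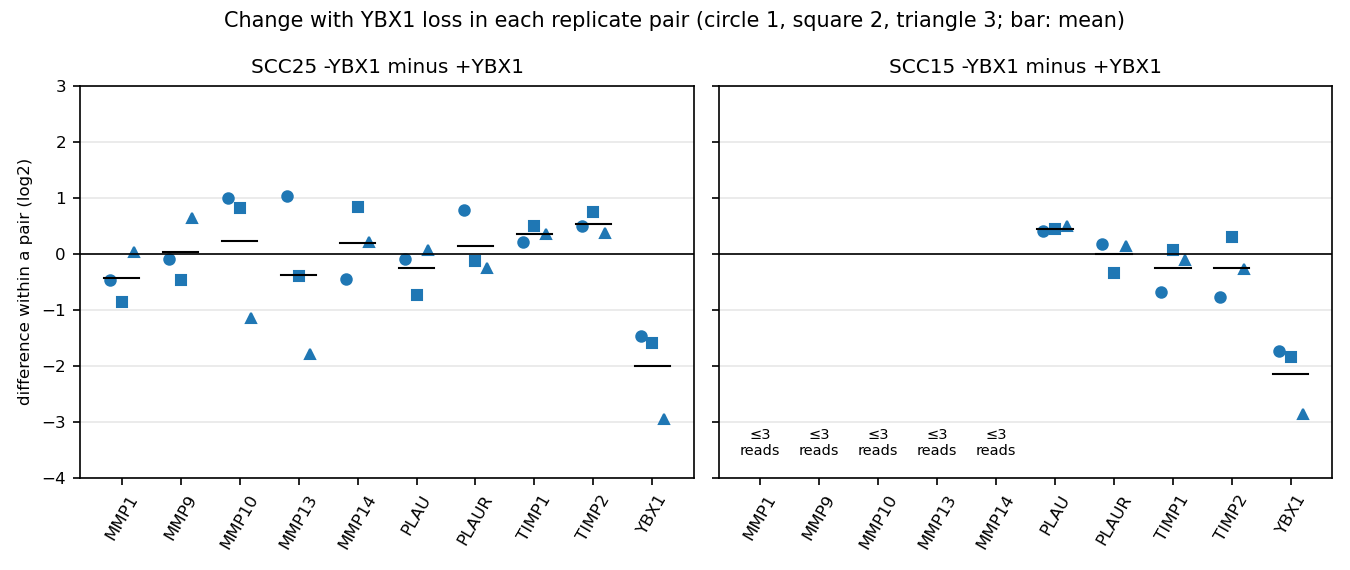
Change of each gene with YBX1 loss within each replicate pair (log2, vertical axis) in SCC25 and SCC15, with the mean as a bar and YBX1 for comparison. TIMP1 and TIMP2 lie above 0 in all 3 SCC25 pairs and PLAU in all 3 SCC15 pairs. Signs differed between pairs for MMP1, MMP9, MMP10, MMP13, MMP14, PLAU and PLAUR in SCC25, and for PLAUR, TIMP1 and TIMP2 in SCC15. The share of all genes that keep their sign over all 3 pairs was not counted, so agreement in sign cannot be told from chance. The 5 metalloproteinases have 3 reads or fewer per library in SCC15.

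Among the inhibitors in SCC25, TIMP2 stood at 6.73, 7.40 and 6.96 log2 CPM in the -YBX1 libraries, each above the 3 +YBX1 libraries. The pairs differed by 0.49, 0.75 and 0.37, and the fitted change was 0.54 (1.45-fold, 95% interval of the log2 change 0.03 to 1.05, limma adjusted p = 1.00). TIMP1 stood at 9.07, 8.84 and 8.95 against 8.85, 8.35 and 8.60. Its pairs differed by 0.22, 0.49 and 0.35 and its fitted change was 0.35 (95% interval -0.03 to 0.73, limma adjusted p = 1.00), with 1 library of each arm overlapping. With the replicate block the intervals were -0.0056 to 1.08 for TIMP2 and 0.0042 to 0.70 for TIMP1 (limma adjusted p = 1.00 for both). The largest pair differences of both were in replicate 2, the pair whose -YBX1 library stood apart in interferon response genes, and without that library the changes were 0.35 for TIMP2 and 0.41 for TIMP1. In SCC15 TIMP2 changed by -0.25 (95% interval -0.76 to 0.26) and TIMP1 by -0.25 (-0.63 to 0.13). The test of the difference between lines gave 0.79 for TIMP2 (95% interval 0.06 to 1.51) and 0.60 for TIMP1 (0.06 to 1.13), SCC25 minus SCC15. Neither passed adjustment (limma adjusted p = 1.00 for both), as for 0 of 12995 genes (0%), with 2.26% of all genes at an unadjusted p under 0.05.

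The proteases in SCC25 varied between replicates more than between arms. MMP9 stood at 7.49, 7.80 and 7.79 log2 CPM in SCC25 -YBX1, within the range of SCC25 +YBX1, and changed by 0.03 (95% interval -0.97 to 1.03). MMP14 stood at 4.18, 5.36 and 4.59, around the +YBX1 values, with a change of 0.20 (-1.14 to 1.54). MMP13 ranged from 1.48 to 5.79 with pair differences of 1.03, -0.39 and -1.79, so that the pairs differed in sign (fitted change -0.39, 95% interval -2.13 to 1.36). MMP1 stood at 4.74, 2.56 and 5.03 (change -0.43, 95% interval -2.18 to 1.32), and MMP10 had 23, 4 and 9 reads (0.22, -1.57 to 2.02). Replicate 2 had the lowest MMP1, MMP10 and PLAU of both SCC25 arms.

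Within the urokinase pair, PLAU stood at 9.88, 8.35 and 10.20 log2 CPM in SCC25 -YBX1, a change of -0.25 (95% interval -1.52 to 1.02). In SCC15 -YBX1 it stood at 3.13, 1.12 and 1.93. The SCC15 pairs differed by 0.40, 0.44 and 0.50. The fitted change was 0.45 (95% interval -0.82 to 1.72, limma adjusted p = 1.00), and with the replicate block the interval was -0.21 to 1.11 (adjusted p = 1.00). PLAUR changed by 0.14 in SCC25 (-0.32 to 0.59) and by -0.01 in SCC15 (-0.46 to 0.44), the narrowest intervals among the proteases and their receptor. In SCC15, MMP1, MMP9, MMP10, MMP13 and MMP14 had at most 3 reads per library in both arms, and no change could be measured at this depth.

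Of 113 further genes listed for the metalloproteinase, plasminogen, ADAM, cathepsin and membrane serine protease systems and their AP-1 and ETS regulators, 85 were measured. SCC15 was lower than SCC25 in 54 and higher in 7 of these, with a median difference of -2.13, where 23.6% of all genes were lower and 20% higher. Against OKF6 it was lower in 49 and higher in 13 (median -1.92), where 23.4% of all genes were lower and 26.9% higher. SCC25 was higher than OKF6 in 19 and lower in 14 (median 0.05), where 18.9% of all genes were higher and 11.3% lower. In both knockdowns 0 of 85 passed the threshold (limma). At an unadjusted p under 0.05 were 1 in SCC25 and 4 in SCC15, beside 3.09% and 2.32% of all genes. Some of the 85, such as MMP3, ST14 and KLK5, had at most 3 reads per library in both SCC15 arms. Their change there could not be measured, and they could hardly come out higher in SCC15 than in SCC25 or OKF6.

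**Figure D4:**
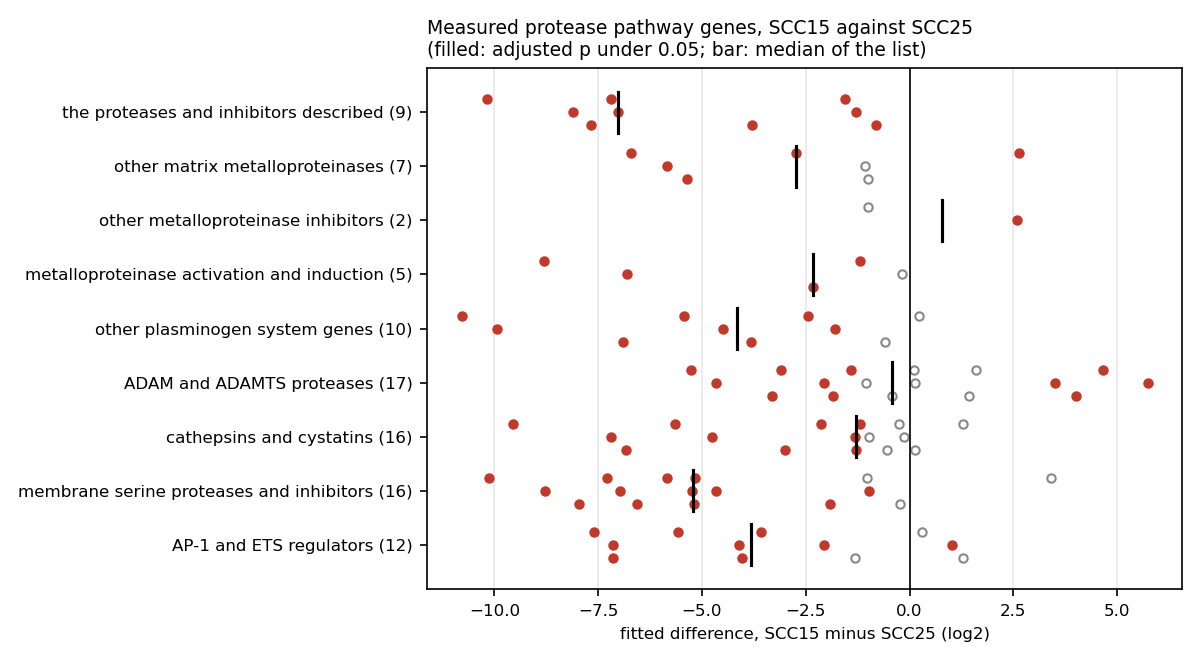
Fitted difference of SCC15 from SCC25 (log2, horizontal axis) for the 9 genes described and 85 further measured genes by list, filled where the adjusted p was under 0.05, with the median of each list as a bar. The medians of 7 of the 8 further lists lie below 0, and the list of other metalloproteinase inhibitors holds 2 genes.

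Of 7 other metalloproteinases measured, 4 were lower and 1 higher in SCC15 than in SCC25. MMP2, a gelatinase that MMP14 activates, averaged 4.17 ± 0.40 log2 CPM (SD, n = 3) in SCC25 +YBX1, 1.45 ± 0.44 in SCC15 +YBX1 and -1.78 ± 1.48 in OKF6, and was higher than OKF6 in both SCC25 (5.96, limma adjusted p = 0.000151) and SCC15 (3.23, adjusted p = 0.00282). MMP3, the other stromelysin of the chromosome 11 cluster, had 76 reads in SCC25 +YBX1, 7 in OKF6 and 0 in SCC15 +YBX1, at least 9.95-fold lower in SCC15 than in SCC25. MMP28 had 413 reads in OKF6, 201 in SCC25 +YBX1 and 1 in SCC15 +YBX1. MMP11 went the other way, with 141 reads in SCC15 +YBX1, 21 in SCC25 +YBX1 and 0 in OKF6, at least 13.6-fold higher in SCC15 than in OKF6. Of the other inhibitors, TIMP3 averaged 5.21 ± 0.19 in OKF6, 5.83 ± 0.56 in SCC25 and 4.83 ± 0.78 in SCC15 (each SD, n = 3), with no comparison past the threshold, and RECK, a membrane-anchored inhibitor, was 2.58 higher in SCC15 than in SCC25 (adjusted p = 0.0314, 42 against 7 reads).

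Of 10 other plasminogen system genes, 8 were lower and 0 higher in SCC15 than in SCC25. SERPINB2, an inhibitor of urokinase, fell in steps from OKF6 (9.20 ± 0.66 log2 CPM, SD, n = 3) to SCC25 (4.57 ± 0.15) and SCC15 (-2.34 ± 2.03), each step past the threshold (limma). SERPINE2, an inhibitor of thrombin and of plasminogen activators, was 2.57 above OKF6 in SCC25 (adjusted p = 0.000203) and below OKF6 in SCC15 (-2.86, adjusted p = 2.38e-05). PLAT, the tissue-type plasminogen activator, went apart from PLAU: it averaged 5.05 ± 0.74 in SCC15 and 4.82 ± 0.57 in SCC25 against 2.49 ± 1.92 in OKF6, higher than OKF6 in both (adjusted p = 0.0202 and 0.0474). F3, tissue factor, had 23 reads in SCC15 +YBX1 and 20463 in SCC25 +YBX1 (-9.94, adjusted p = 2.78e-09).

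Of 5 genes for metalloproteinase activation and induction, 4 were lower and 0 higher in SCC15 than in SCC25. FURIN, the convertase that removes the MMP14 propeptide, averaged 8.54 ± 0.12 log2 CPM in SCC25, 6.34 ± 0.26 in OKF6 and 6.22 ± 0.40 in SCC15 (SD, n = 3). SCC25 stood above OKF6 by 2.20 (limma adjusted p = 6.54e-05), and SCC15 and OKF6 differed by -0.11 (adjusted p = 0.705). BSG, which induces metalloproteinases in neighbouring cells, was lower than OKF6 in SCC25 (-1.22, adjusted p = 0.000688) and in SCC15 (-1.40, adjusted p = 7.53e-05). Of 12 AP-1 and ETS regulators, factors known to act on metalloproteinase and urokinase promoters, 8 were lower and 1 higher in SCC15 than in SCC25. FOSL1 fell from 6.93 ± 0.36 in SCC25 to -0.22 ± 0.78 in SCC15 (-7.15, adjusted p = 1.38e-06) and ETS1 from 6.52 ± 0.09 to 0.94 ± 0.25 (-5.58, adjusted p = 5.92e-08), while JUN was 1.03 higher in SCC15 (adjusted p = 0.0339). Neither FOSL1 nor ETS1 differed past the threshold between SCC25 and OKF6 (adjusted p = 0.948 and 0.0736).

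Of 16 membrane serine proteases and inhibitors, 13 were lower and 0 higher in SCC15 than in SCC25. Among them were ST14, the epithelial protease matriptase (3 against 1132 reads, ratio 445, 152 to 2159), and the serpin SERPINB5. SERPINB5 had 7 against 4904 reads (-10.12, limma adjusted p = 1.00e-06). Of 16 cathepsins and cystatins, 10 were lower and 0 higher, with CTSB at -2.13 (adjusted p = 4.00e-06) and CTSL at -1.32 (adjusted p = 0.00868). Of 17 ADAM and ADAMTS proteases, 7 were lower and 4 higher. ADAM10 was lower in SCC15 (-2.06, adjusted p = 0.00571), ADAM17 did not pass (-1.05, adjusted p = 0.118), and ADAMTS9 (113 reads against 0, at least 10.7-fold), ADAMTS2 (94 against 2, ratio 39.9, 10.7 to 334) and ADAMTS4 (42 against 0, at least 3.96-fold) were higher in SCC15. Against OKF6, CSTA, an epidermal cystatin, was lower in SCC15 (-11.24, adjusted p = 6.34e-07), and ADAMTS2 and ADAMTS13 had 94 and 89 reads in SCC15 against 0 in OKF6, at least 9.09-fold and at least 8.60-fold. In SCC25 against OKF6, ADAMTS12 had 47 reads against 0 and the collagen-degrading cathepsin CTSK was 4.66 higher (adjusted p = 0.000404), while KLK10 (-3.56, adjusted p = 0.000341) and the protease inhibitor SPINK5 (-3.25, adjusted p = 0.00113) were lower.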

How the data were processed

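QuantSeq 3′ FWD libraries, which read the 3′ end of each mRNA, were trimmed with Cutadapt, aligned to hg38 with HISAT2, counted with featureCounts, and normalised and filtered with limma by the authors. The deposited values are log2 CPM, the log2 of the reads plus 0.5 over the normalised library size, 1 table holding the lines and the other the knockdown of YBX1. Genes the authors had filtered out were not analysed here. Whole reads came back for 100% of values (tolerance 0.05 read). The 6 libraries in both tables differed by at most 5e-08. A linear model was fitted to these log2 values (lmFit and trended eBayes of limma 3.58.1, R 4.3.3), with two-sided tests that were Benjamini-Hochberg adjusted over all genes, and with every group of a table in the fit. Intervals of read ratios are exact binomial (95%) and cover counting error alone, as reads are not independent molecules. The code was tested on simulated data.

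Groups and replicate numbers came from the sample labels. In the knockdown, same-numbered libraries deviated together in every pair (correlations 0.135 to 0.470 in SCC25 and 0.117 to 0.498 in SCC15 over 6497 genes). The numbers were therefore taken as pairs for the differences within pairs. The main fits had no replicate block and so were unpaired, and the block was an alternative. The genes described and the lists were chosen with earlier results of these data known. Named further genes were a set written out by symbol, plus per comparison of lines the 3 highest and 3 lowest listed genes past the threshold without overlap. 1 of these genes is not reported here. Likeness was the 3 highest Pearson correlations over 15 libraries. Positions and overlaps came from GENCODE. Of the last 500 bases of each transcript, taken in pieces of 75 bases, those of 8 genes matched no other gene and 12.8% of the pieces of MMP9 matched SLC12A5-AS1 (blastn 2.17.0, at least 72 bases identical). Python 3.11.15 with matplotlib 3.10.9 drew the plots.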

Additional observations from a re-analysis of the deposited data

How the results depend on the processing

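Alternatives tried were voom weights, a pseudocount of 1 CPM, quantile normalization, equal library medians, genes above the first quartile, no variance trend, a fit of only the groups compared, the replicate block, and each library left out. Under all of these run for the comparison, the drops of MMP1, MMP9, MMP14, PLAU, PLAUR and TIMP2 from SCC25 to SCC15 passed the threshold. MMP10 and MMP13 fall out of the filter above the first quartile, so they were not tested under every setting. In SCC25 against OKF6, 1 of the 9 genes was lower (MMP14) with only the groups compared, with a pseudocount of 1 CPM and with voom weights. Of all 12995 genes, 1163, 1640 and 1526 were lower under these settings. Above the first quartile, a filter that leaves out at least MMP10 and MMP13, 1 of those kept was higher, beside 1701 of all 9746 genes. Further listed genes higher in SCC15 than in SCC25 numbered 12 with only the groups compared, beside 3762 of all 12995 genes. Above the first quartile they numbered 2, beside 1535 of all 9746 genes. With that filter, 5 were higher in SCC15 than in OKF6, beside 2118 of all genes. In SCC25 against OKF6, 12 were higher with it, beside 1701 of all genes. Equal medians and quantiles moved the median of all genes from -0.01 to 0.14 and 0.17 in SCC15 against SCC25. In SCC25 against OKF6, quantiles turned 2450 higher and 1473 lower genes into 2006 and 1837. Quantile normalization turned PLAU in SCC25 against OKF6 to -0.041 and PLAUR in the SCC15 knockdown to 0.027.

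Between lines, same-numbered libraries had correlations of both signs (-0.198 to 0.264), some of them above the lowest in the knockdown (0.117). The replicate block raised TIMP1 in SCC25 against OKF6 past the threshold (0.58, limma adjusted p = 0.0391). In the knockdown fits, adding the replicate block changed no call, at 0 of 9 genes. Leaving out 1 library at a time, changes near 0 changed sign. In SCC25 against OKF6 the ranges were -0.28 to 1.198 for MMP1, -0.11 to 0.90 for MMP9, -1.41 to 0.12 for MMP10 and -0.18 to 0.66 for PLAU. In the SCC25 knockdown they were -0.99 to 0.34 for MMP1, -0.24 to 0.33 for MMP9, -0.66 to 0.86 for MMP10, -1.43 to 0.73 for MMP13, -0.12 to 0.46 for MMP14, -0.61 to 0.31 for PLAU and -0.12 to 0.31 for PLAUR. In the SCC15 knockdown they were -0.089 to 1.01 for PLAU, -0.10 to 0.11 for PLAUR and -0.45 to 0.0054 for TIMP2, and between the knockdowns -0.11 to 0.31 for PLAUR and -0.22 to 0.58 for YBX1. No call rested on these, and the cause was not tested. At this depth, the 5 metalloproteinases cannot be followed in SCC15.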
